A study of Rattus norvegicus with 4 samples.

Results

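The genes described here are 10 genes of melanin synthesis and of the melanosome: Tyr, Tyrp1, Dct, Pmel, Mlana, Slc45a2, Oca2, Gpr143, Mitf and Slc24a5. They were chosen by symbol, and 9 of the 10 had a value, among 14485 gene names in all. The expression of Oca2 was not analysed here, only its promoter window. Expression had been measured by RNA sequencing in eye and in retina of Long Evans rats, a hooded, pigmented strain, with a wild-type genotype. Each tissue has 2 technical replicates among the 4 samples, and a library holds pooled RNA from 5 rats. No treatment is named, and neither age nor sex of the animals is stated in the labels. One column of values was analysed per tissue, called its library here. There was thus 1 value per gene and tissue, no replicate check, and no test or p-value for any difference.

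Melanin is made from the amino acid tyrosine inside melanosomes, organelles related to lysosomes. Tyrosinase (Tyr) starts the synthesis, its relatives Dct and Tyrp1 act on later intermediates, the Pmel protein forms the fibrils on which pigment is laid down, and membrane transporters set the ionic state of the organelle. In the eye this happens in the retinal pigment epithelium, in the pigmented epithelia of iris and ciliary body, and in melanocytes of the choroid and iris that come from the neural crest. The neural retina itself does not make melanin. MITF is a transcription factor of pigment cells that binds E-box sequences in the promoters of several of these genes.

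All 9 melanin and melanosome genes were higher in eye than in retina by a factor of 2 or more. Dct, Tyrp1 and Pmel were by far the most abundant of them in both libraries. Mlana had the largest fold, 15.4, and Mitf the smallest, 2.87. Tested were the 13259 genes that reached a value of 1 in eye, in retina or in both. Of these, 17.8% were at least 2-fold higher in eye, and 9.07% at least 4-fold higher, a size reached by 8 of the 9 members. In bulk tissue, a larger share of pigment cells and more of these transcripts per cell cannot be told apart.

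Levels are RPKM (reads scaled by the length of the gene model and by the library's total), a unit inferred from the values, which allows levels of different genes to be compared. Whole reads were recovered from the values, with totals of 28071917 reads for eye and 51944762 for retina. They were between 46 and 20755 reads per gene in eye and between 15 and 3085 in retina for these genes. Intervals below are exact 95% intervals from those reads. They cover counting error only and compare the 2 libraries, not the tissues. They take the smallest reads that could give the values, so they are if anything too wide.

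**Figure D1:**
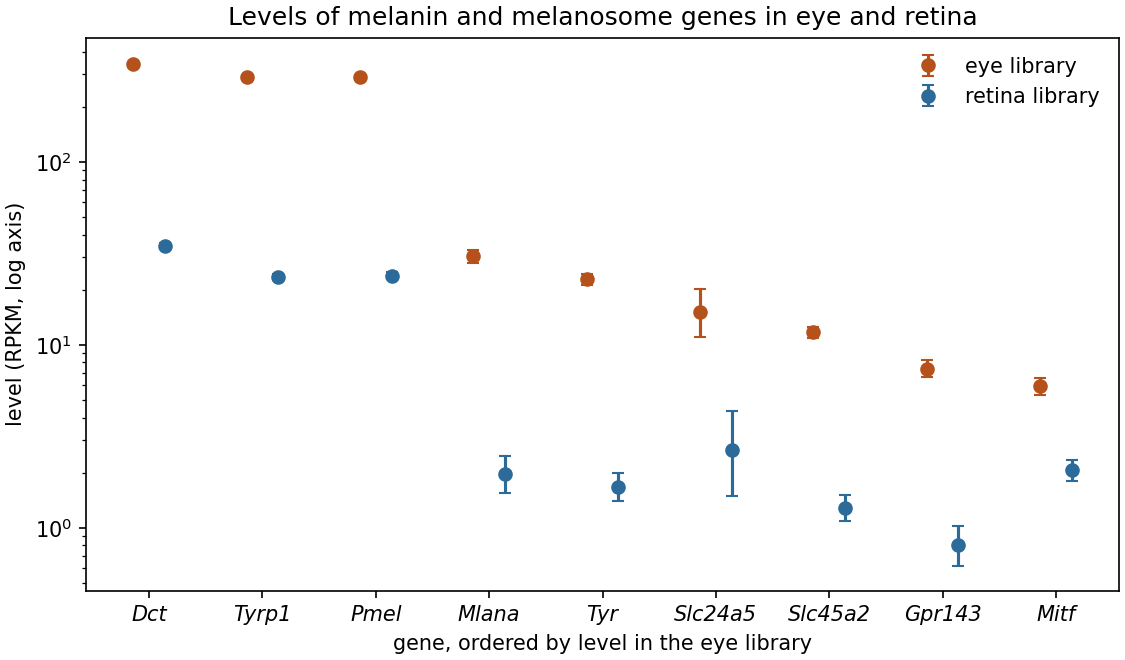
Level of each gene (RPKM, log axis) in the eye library (orange) and the retina library (blue), with exact 95% counting intervals as bars. Dct, Tyrp1 and Pmel stand between 290 and 342 RPKM in eye and between 23.4 and 34.8 RPKM in retina, and each of the 9 genes is higher in eye, Mitf by the smallest fold.

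The 3 enzymes of the tyrosinase family differed widely in level but less in fold. Dct, dopachrome tautomerase, had a level of 342 RPKM in eye, against 34.8 RPKM in retina, a fold of 9.81 (interval 9.43 to 10.2). Tyrp1, tyrosinase-related protein 1, had 291 RPKM in eye and 23.4 RPKM in retina, a fold of 12.4 (12.0 to 12.9). Tyr, the rate-limiting enzyme whose loss causes albinism, had only 22.7 RPKM in eye and 1.67 RPKM in retina, a fold of 13.6 (11.3 to 16.5). Tyr transcripts were thus at 6.65% of the Dct level in eye and at 4.80% of it in retina. Among all genes Dct ranked 94th in eye and 2051st in retina. Tyr ranked 3327th in eye and 11272nd in retina.

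The promoter windows of these 3 genes are shown because the genes share a sequence word there, described further on. Each window runs from 250 bases before to 50 bases after the RefSeq start site in the rat assembly GRCr8, taken from RefSeq and written 5′ to 3′ on the gene's strand, with the word CATGTG in capitals. They lie at chr1:150622808-150623107, minus strand, at chr5:100326875-100327174, plus strand, and at chr15:101507980-101508279, minus strand.
Tyr promoter: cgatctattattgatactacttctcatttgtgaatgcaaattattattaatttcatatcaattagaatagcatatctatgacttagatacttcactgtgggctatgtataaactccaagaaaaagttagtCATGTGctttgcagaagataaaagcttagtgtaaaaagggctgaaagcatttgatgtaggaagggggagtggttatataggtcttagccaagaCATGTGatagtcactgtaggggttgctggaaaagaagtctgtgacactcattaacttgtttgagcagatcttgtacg
Tyrp1 promoter: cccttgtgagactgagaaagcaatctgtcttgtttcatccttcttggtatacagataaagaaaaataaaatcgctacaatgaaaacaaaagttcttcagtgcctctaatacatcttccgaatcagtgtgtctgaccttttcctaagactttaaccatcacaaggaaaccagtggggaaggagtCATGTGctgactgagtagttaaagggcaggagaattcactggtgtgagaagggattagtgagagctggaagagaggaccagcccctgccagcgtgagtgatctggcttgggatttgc
Dct promoter: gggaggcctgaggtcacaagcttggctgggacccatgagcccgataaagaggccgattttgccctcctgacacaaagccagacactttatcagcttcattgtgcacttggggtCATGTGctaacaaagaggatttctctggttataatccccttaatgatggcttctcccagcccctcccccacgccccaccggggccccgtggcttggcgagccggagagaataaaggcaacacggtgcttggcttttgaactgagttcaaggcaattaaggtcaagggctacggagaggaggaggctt

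The structural proteins of the melanosome split in level. Pmel, the fibril protein, had a level of 290 RPKM in eye and 23.9 RPKM in retina, a fold of 12.2 (11.6 to 12.7). Its level was within counting error of that of Tyrp1 in each library, with a Tyrp1 to Pmel ratio of 1.00 in eye and 0.981 in retina. Mlana, a small membrane protein that takes part in the maturation of Pmel, had 30.4 RPKM in eye and 1.97 RPKM in retina, a fold of 15.4 (12.2 to 19.8). The lowest of the 3 abundant genes was 9.54 times the next member, Mlana, in eye, and 8.83 times the next member, Slc24a5, in retina. Dct, Tyrp1 and Pmel made up 90.8% of the summed level of the 9 genes in eye and 88.7% in retina.

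Transporters and the receptor of the melanosome were rarer. Slc45a2, a transporter of the melanosome membrane whose loss causes albinism, had a level of 11.7 RPKM in eye and 1.29 RPKM in retina, a fold of 9.08 (7.59 to 10.9). Slc24a5, a cation exchanger needed for normal pigmentation, had 15.0 RPKM in eye and 2.65 RPKM in retina, a fold of 5.67. Its interval, 3.11 to 10.9, was the widest relative to its fold, because the smallest reads that gave its values were 46 in eye and 15 in retina. Those go with a gene model of 109 bases, against 763 to 2538 bases for the other members, so the true reads may be a multiple of them and the interval narrower. Gpr143, the receptor whose loss causes ocular albinism, had 7.40 RPKM in eye and 0.800 RPKM in retina, a fold of 9.25 (7.10 to 12.2). The retina value of Gpr143 was the lowest of all the members, at rank 12283 among 14485 gene names.

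Mitf stood apart from the rest in fold. It had a level of 5.92 RPKM in eye and 2.07 RPKM in retina, a fold of 2.87 (2.42 to 3.40). That interval lay below those of 7 of the other members, and overlapped that of Slc24a5. With equal summed values in both libraries Mitf was no longer called, at a log2 fold of 0.85, and the other 8 members still were. The retina level of Mitf was 34.9% of its eye level, while that of the other 8 genes ran from 6.48% for Mlana to 17.6% for Slc24a5. Mitf was the least abundant member in eye and 5th of the 9 in retina. It made up 0.583% of the summed level of the members in eye and 2.23% in retina.

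**Figure D2:**
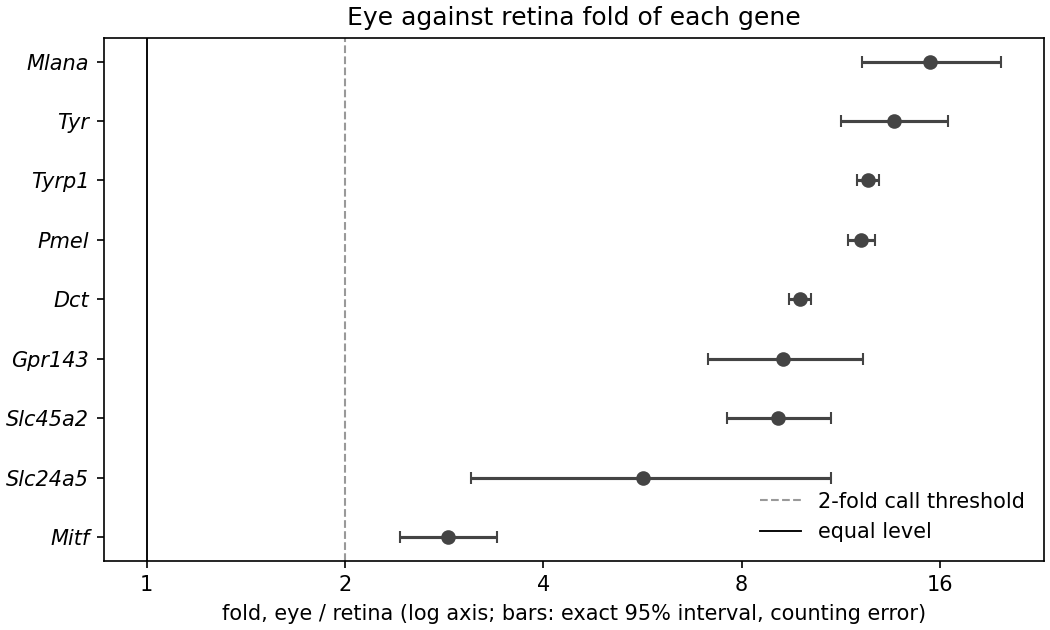
Fold of each gene, eye over retina, on a log axis, with exact 95% counting intervals as bars. Mlana, Tyr, Tyrp1 and Pmel lie between 12.2 and 15.4, Dct, Gpr143 and Slc45a2 between 9.08 and 9.81, and Mitf at 2.87 has an interval that stays above the dashed 2-fold line.

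In the eye library the order of levels was Dct, Tyrp1, Pmel, Mlana, Tyr, Slc24a5, Slc45a2, Gpr143 and Mitf. Of its 8 neighbouring pairs, 2 had overlapping intervals, Tyrp1 with Pmel and Slc24a5 with Slc45a2. In the retina library the order was Dct, Pmel, Tyrp1, Slc24a5, Mitf, Mlana, Tyr, Slc45a2 and Gpr143, and 5 of 8 neighbouring pairs overlapped. From Slc24a5 down to Slc45a2 each gene there overlapped the next. In the order of folds, 7 of 8 neighbouring pairs overlapped, and the pair that did not was Pmel with Dct. The summed level of the 9 genes was 1016 RPKM in eye and 92.5 RPKM in retina.

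On the scale log2((eye + 0.1) / (retina + 0.1)), the median of the 9 genes was 3.29, against -0.01 over all tested genes. As many as 4.84% of all tested genes had a fold as large as that of Dct or larger. Tested genes at 0 in retina have no ratio and were not counted as such, so the share is a lower bound. In eye, 7 of the 9 genes were above the median level of all genes (8.75 RPKM), and in retina 3 of 9 were above it (8.11 RPKM). The 5 other genes nearest to the median point of the members in level in both libraries were Rbm24, Col5a2, Sema3c, Fbln5 and Pdgfrl. This likeness rests on 2 values per gene. Rbm24 had 24.6 RPKM in eye and 2.10 RPKM in retina, a fold of 11.7.

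**Figure D3:**
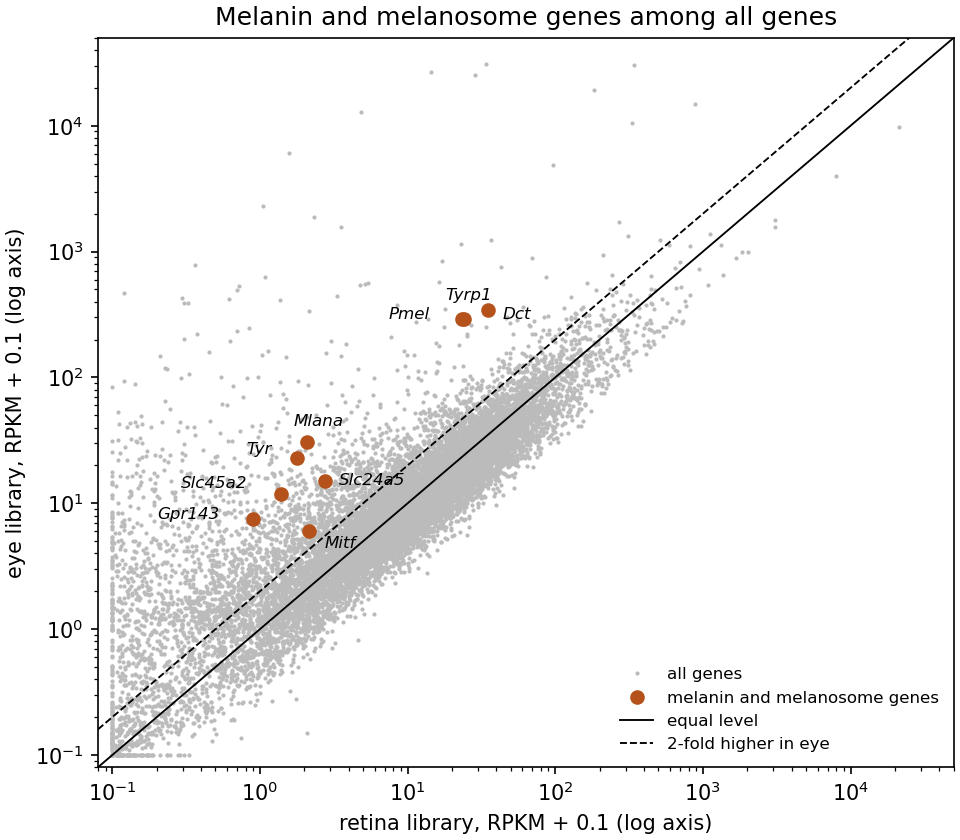
Level of every gene in the eye library against that in the retina library (RPKM + 0.1, both axes log), with the 9 melanin and melanosome genes in orange. All 9 lie above the dashed line of a 2-fold higher level in eye, and many other genes (17.8% of those tested) do so too.

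Promoter windows were given for 8 of the 10 genes, Oca2 included, and Slc45a2 and Slc24a5 had none. The E-box word CATGTG, on either strand, stood in 5 of these 8: Tyr, Tyrp1, Dct, Mlana and Gpr143. Over all 33469 promoter windows of that length, 14.0% held the word, and 8.58% of the 10938 whose gene symbols are in the files did. It also stood in 5 of 14 windows of pigment epithelium markers, 5 of 18 of lysosome genes, 5 of 29 of the genes of melanosome biogenesis and movement and 0 of 13 of regulators and signals. In each of the 5 genes a copy was preceded by T, giving TCATGTG, a word chosen with these windows in view. This longer word was found in 3.56% of all windows and 2.16% of those of genes in the files. It stood in 3 of 18 windows of lysosome genes and 2 of 29 of the biogenesis and movement genes. Pigment epithelium markers held it in 0 of 14 windows, and regulators and signals in 0 of 13. The full M-box, the 11 bases AGTCATGTGCT, contains both shorter words. Its letters were taken from the Tyr window itself, so the match in Tyr was fixed in advance. The M-box was found in 12 of 33469 windows, among them those of Tyr and Tyrp1. The windows around each copy are shown aligned, since their flanks can be compared base by base. All are written so that the word reads CATGTG, in capitals.
Tyr, 120 bases before the start: gaaaaagttagtCATGTGctttgcagaaga
Tyr, 27 bases before the start: tcttagccaagaCATGTGatagtcactgta
Tyrp1, 67 bases before the start: tggggaaggagtCATGTGctgactgagtag
Dct, 137 bases before the start: tgcacttggggtCATGTGctaacaaagagg
Mlana, 204 bases before the start: aagtgtttttgtCATGTGcctaatgtaata
Gpr143, 26 bases before the start: gagattggacgtCATGTGctctgtgcctct

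The Tyr copies lie at chr1:150622960-150622989 (minus strand) and chr1:150622867-150622896 (minus strand), the Tyrp1 copy at chr5:100327046-100327075 (plus strand) and the Dct copy at chr15:101508149-101508178 (minus strand). The Mlana copy lies at chr1:236882859-236882888 (minus strand) and the Gpr143 copy at chrX:25498563-25498592 (minus strand), in both cases on the strand opposite to the gene. Distances are from the start site to the leftmost base of the word on the gene's strand. Tyr had a second copy, preceded by A, 27 bases before its start. Pmel, Mitf and Oca2 had none in their windows. The palindromic E-box CACGTG was in 0 of the 8 windows, in 6.42% of all windows and in 8.66% of those of genes in the files. It was in 6 of 18 windows of lysosome genes and 7 of 29 of the biogenesis and movement genes. Pigment epithelium markers held it in 1 of 14 windows, and regulators and signals in 1 of 13. The word TAATCC, bound by OTX factors, was found on either strand in 2 of the 8, Dct and Tyrp1. It was in 7.17% of all windows and 5.48% of those of genes in the files. Lysosome genes held it in 3 of 18 windows and pigment epithelium markers in 2 of 14. The biogenesis and movement genes held it in 0 of 29, and regulators and signals in 0 of 13. A match describes letters, not binding, and a missing word says only that these letters are not in the window.

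**Figure D4:**
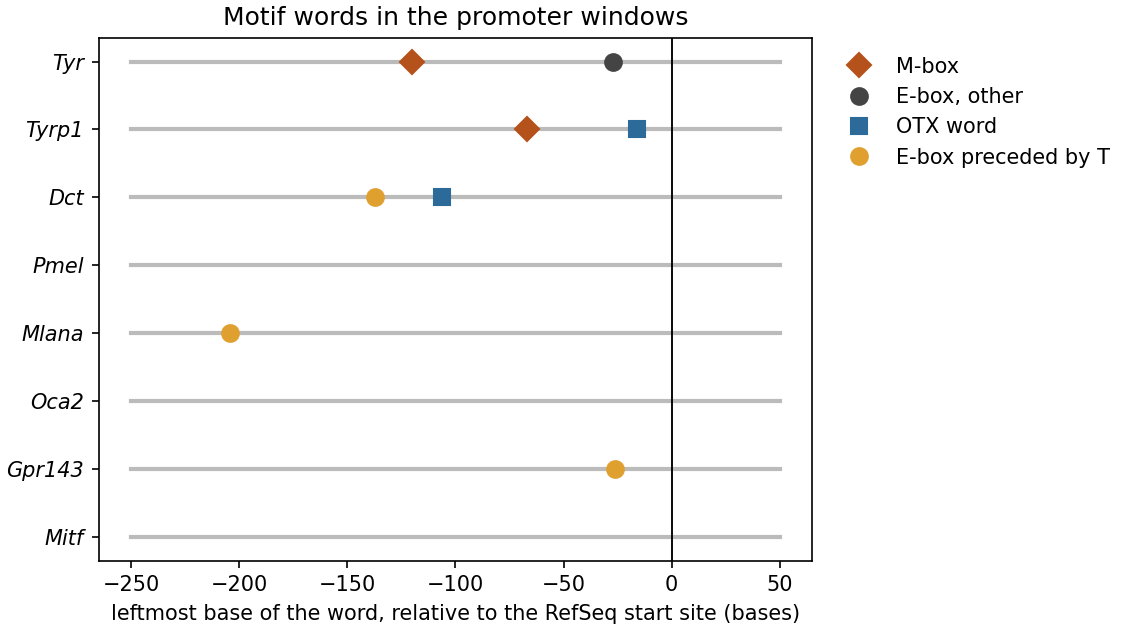
Position of each motif word along the 8 promoter windows, in bases relative to the RefSeq start site (vertical line). Copies of the E-box word lie before the start site in 5 genes, from 204 bases in Mlana to 26 bases in Gpr143, and Pmel, Oca2 and Mitf show no word.

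Among genes that build, dock and move melanosomes, most were not called. Of 33 listed, 31 were tested, and 7 of these were higher in eye (22.6%, beside 17.8% of all tested genes) and 0 lower (beside 7.95%). Their median log2 fold was 0.43. With equal summed values 4 were higher and 6 lower. The BLOC complexes, which sort cargo to melanosomes and other lysosome-related organelles, had 0 of 12 genes called, with folds from 0.566 to 1.53. Of 4 subunits of the AP-3 adaptor, 1 was called, Ap3s1, with a fold of 2.20.

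The genes of this list with a fold of at least 4 were Gpnmb, Rab38 and Mlph. Gpnmb, a relative of Pmel, had 124 RPKM in eye and 9.43 RPKM in retina, a fold of 13.1 (12.3 to 14.0). Rab38, a small GTPase that brings tyrosinase family proteins to the melanosome, had 18.6 RPKM in eye and 1.46 RPKM in retina, a fold of 12.7 (10.3 to 15.7). Its relative Rab32 had 5.46 RPKM in eye and 2.78 RPKM in retina and was not called. Mlph and Rab27a, which tether melanosomes to a myosin motor, had folds of 5.80 and 3.68. Myo5a, the motor itself, had 11.3 RPKM in eye and 14.6 RPKM in retina. The other genes called were Cd63, a tetraspanin of melanosomes and lysosomes, and Myo7a, a motor of the pigment epithelium, with folds of 2.35 each. Myo7a had only 1.36 RPKM in eye and 0.577 RPKM in retina, and 6 genes of the list were called with 1 added to each value or with a minimum of 5.

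Most lysosome genes and most genes of tyrosine metabolism outside the melanosome were not called. The median log2 fold of 23 lysosome genes was 0.32. Of them, 4 were higher in eye (17.4%, beside 17.8% of all tested genes) and 0 lower (beside 7.95%). Those higher included Ctsl (fold 3.43), a protease, Lamp2 (2.71), a membrane protein, and Npc2 (2.38), a cholesterol carrier. Of 9 tested genes of tyrosine and catechol metabolism, 2 were higher (22.2%), Maob and Pcbd1, and 0 lower, with a median log2 fold of 0.76. With totals without lens markers, 4 of these 9 were higher. With equal summed values, 2 lysosome genes were higher and 4 lower, and 0 tyrosine and catechol genes were higher and 1 lower. Th, the tyrosine hydroxylase of dopamine neurons, had its higher value in retina, with 5.15 RPKM in eye and 7.71 RPKM in retina, and was not called.

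**Figure D5:**
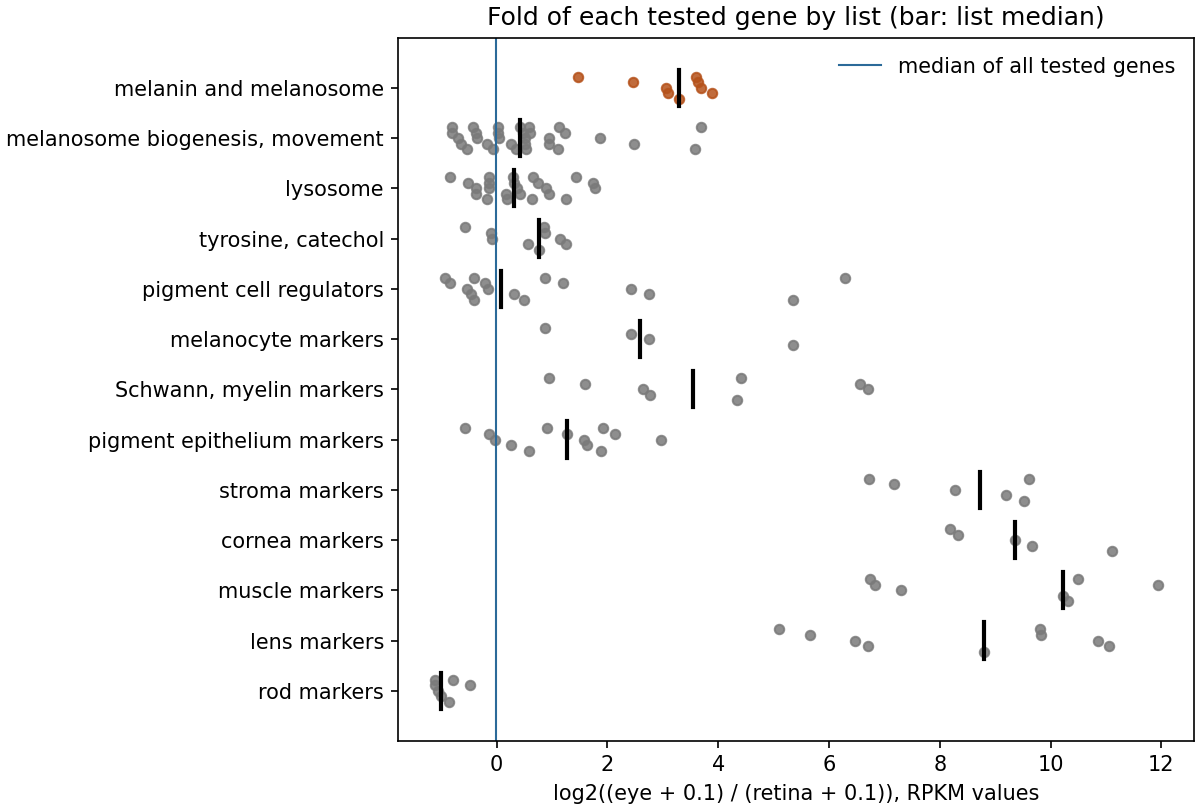
log2((eye + 0.1) / (retina + 0.1)) of each tested gene (points) and the median of each list (black bars), with the median of all tested genes as a blue line. Melanin and melanosome genes (orange) have a median of 3.29, near those of melanocyte markers (2.59) and of Schwann and myelin markers (3.55). Medians are 1.27 for pigment epithelium markers and 8.73 to 10.23 for stroma, cornea, muscle and lens markers, and rod markers lie below 0.

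Regulators and signals of pigment cells were mixed. Of 16 tested, 5 were higher in eye (31.3%, beside 17.8% of all tested genes) and 0 lower (beside 7.95%). With equal summed values 4 were higher and 6 lower. Sox10, a neural crest factor that acts on the Mitf gene, had 8.09 RPKM in eye and 1.43 RPKM in retina, a fold of 5.66 (4.86 to 6.61). Ednrb, the endothelin receptor of melanocyte precursors, had a fold of 6.88 (6.01 to 7.89). Its ligand Edn3 had 24.1 RPKM in eye and 0.209 RPKM in retina, where the value came from as few as 8 reads. Kitlg, the ligand of the receptor Kit, had a fold of 2.35, while Kit itself, with 5.19 RPKM in eye and 2.80 RPKM in retina, was not called. Pigment epithelium and retina share Otx2, which had 88.3 RPKM in eye and 158 RPKM in retina and was not called.

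Of 6 neural crest melanocyte markers 4 were tested, and 3 were higher in eye, Sox10, Ednrb and Erbb3, while Kit was not called. All 4 also stand in the list of regulators and signals, so the 3 calls are counted there as well. Erbb3, a neuregulin receptor, had 4.70 RPKM in eye and 0.0182 RPKM in retina, where its value came from as few as 4 reads. Schwann cells also express Sox10 and Erbb3, and 7 of 8 Schwann cell and myelin markers were higher in eye, with summed levels of 359 RPKM in eye and 46.0 RPKM in retina. The part of these cells in the values of Sox10 and Erbb3 was not tested.

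Of 13 tested pigment epithelium markers, 7 were higher in eye (53.8%, beside 17.8% of all tested genes) and 0 lower (beside 7.95%). With equal summed values 4 were higher and 1 lower. The median retina level of these markers was 41.3% of the eye level, against 10.2% for the melanin and melanosome genes. Rpe65, the isomerase of the visual cycle, had 59.0 RPKM in eye and 16.0 RPKM in retina, a fold of 3.69 (3.39 to 4.03). Rgr, an opsin of the same layer, had a fold of 3.79 (3.59 to 4.01). The intervals of 7 melanin and melanosome genes lay above both of these, and those of Mitf and Slc24a5 did not. Lrat, an acyltransferase of the visual cycle, had a fold of 8.18 (7.49 to 8.96). Its interval overlapped those of Slc45a2, Gpr143 and Slc24a5. Rlbp1, which Mueller glia also express, had 145 RPKM in eye and 159 RPKM in retina.

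The tissue labels were checked against markers, since the description of all 4 samples names retina while the tissue and title of 2 of them say eye. Lens markers made up 26.3% of the summed RPKM values in eye and 0.198% in retina. By recovered reads, which are not divided by gene length, their share was 9.77% in eye and 0.0534% in retina. All tested lens (9), corneal (5), skeletal muscle (7) and stroma (6) markers were at least 4-fold higher in eye, with median retina levels of 0.219%, 0.103%, 0.0575% and 0.213% of the eye level. Rod markers had their higher value in retina in 7 of 7 cases, with 4 called lower in eye, or 7 with equal summed values and 0 with totals without lens markers. The members' retina levels were 6.48% to 34.9% of the eye level, while no tested marker of lens, cornea, muscle or stroma exceeded 2.93%. Schwann and myelin markers had a median retina level of 9.08% of the eye level, with a highest value of 51.5%, and melanocyte markers a median of 16.1% and a highest value of 53.9%, beside the members' median of 10.2%. Pigment epithelium markers were measured in the retina library too, and their part in the members' retina levels was not tested.

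Over all tested genes, 69.2% of the called genes were higher in eye. The share was 26.4% with equal summed values and 80.7% with totals without lens markers, which shift all log2 ratios by -0.64 and 0.15 before 0.1 is added. After subtraction of the median over all tested genes, the members' median was 3.30 as deposited and 3.29 and 3.31 under those scalings. A shift of all ratios drops out of this difference, apart from the added 0.1, so these near-equal values were fixed in advance. Without the subtraction, the log2 fold of Dct, the median member, was 3.29 as deposited and 2.65 with equal summed values.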

How the data were processed

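Each library holds pooled RNA from 5 rats, per the labels. The submitters' processing notes name GSNAP, HTSeq and the genome build rn4; versions, annotation, strand use (so that overlapping genes may share reads) and whether technical replicates were joined were not given in the sources used here. Deposited values were the starting point. The deposited values were taken as RPKM, a unit inferred from the values. Of 14533 rows, 7 held ND, and 41 repeated names kept their row of most decimals. Library totals were recovered from the ratio of values and from short genes of known span in RefSeq (GRCr8). Of 927 such genes, 130 gave the same eye total, against 37 for the next once whole multiples were left out. Multiples of a total are found about as often, so the smallest was kept. Whole reads came out, within the rounding of the decimals, for 13980 of 13980 genes searched. The 401 names with at most 5 decimals were not searched. Folds are ratios of deposited values. Calls used log2((eye + 0.1) / (retina + 0.1)) at a fold of at least 2, which understates the change of low genes, among 13259 genes with a value of at least 1. Intervals are Clopper-Pearson for folds and Poisson for levels. The planned tests for replicate columns could not be used with 1 column per tissue. Recovery and calls were tested on simulated data. Older symbols matched 5 listed genes. The members and lists were chosen with earlier results of these data known, and the motif words with the promoter sequences in view. Named genes were all members, genes of the pathway and pigment cell lists, the extremes of the other lists, and the 5 nearest genes. Npc2 and the genes that share the M-box were named after their values were seen. A few listed genes are not reported here. Python 3.11.15, pandas 2.3.3 and scipy 1.17.1 were used. Alternatives varied the added value, the minimum, the fold threshold, the scaling and the use of recovered reads.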

Additional observations from a re-analysis of the deposited data

How the results depend on the processing

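All 9 members stayed at least 2-fold higher in eye under each of 11 alternatives, except Mitf with equal summed values (log2 fold 0.85), and 8 of 9 passed a fold of 4. Alternatives that changed only the minimum, the fold threshold or the use of names with few decimals could not change a member's fold. Their median log2 fold relative to all tested genes ran from 3.16 with 1 added to each value to 3.35 with a minimum of 5. Genes called higher in eye numbered 1530 with equal summed values, 1471 with a minimum of 5 and 1203 at a threshold of 4-fold, beside 2366 as reported. Genes called lower numbered 655 with 1 added, 12 at a fold of 4, 646 with totals without lens markers and 4264 with equal summed values, beside 1054. At a fold of 4, the number higher was 3 for melanosome trafficking, 0 for tyrosine metabolism, 0 for lysosome and 2 for pigment epithelium genes, and 0 rod genes were lower. With totals without lens markers, 4 tyrosine genes were higher and 0 rod genes lower. With equal summed values, the higher and lower numbers were 4 and 6 for trafficking, 0 and 1 for tyrosine, 2 and 4 for lysosome and 4 and 1 for pigment epithelium genes, with 6 regulators and 7 rod genes lower. The cause is the construction of the alternatives: a stricter threshold or filter, a shift of all ratios, or a larger added value, which shrinks the folds of low genes. The alternative without the 401 names of few decimals was added after the data were seen. No paired analysis was possible because each tissue had a single column of values, and leaving out a replicate was not possible for the same reason. By the smallest reads that could give the values, counting error was widest for Slc24a5, whose 15 retina reads go with a gene model of only 109 bases and may be too few by a whole factor.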

Other observations

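The full M-box AGTCATGTGCT stood in the promoter windows of 5 genes with values in these libraries. Beside Tyr, whose window gave the word, and Tyrp1, these were C1qb, Fubp3 and Mbnl2. C1qb, a complement subunit made by macrophages and microglia, had 18.5 RPKM in eye and 7.94 RPKM in retina, a fold of 2.33 (exact 95% interval 2.05 to 2.64). Mbnl2, a splicing factor, had 28.3 RPKM in eye and 23.6 RPKM in retina. Fubp3 had 9.45 RPKM in eye and 10.9 RPKM in retina. Mbnl2 and Fubp3 were not called.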
